A study of Danio rerio with 3 samples.

Results

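The cells described here are resting Müller glia of the larval zebrafish retina, compared between a retina whose blue cones were targeted for ablation (Sws2-ablation) and a retina without ablation. The cells were chosen by measured values, so they were selected on the readout itself: a cell counted as resting Müller glia if its UMIs (unique molecular identifiers, 1 per captured transcript) of glula and apoeb reached 150 per 10000 UMIs and if it held at most 2 UMIs of the 6 proliferation genes mki67, top2a, cdk1, pcna, mcm5 and rrm2. Of 16041 cells that passed the quality limits in both libraries, 6284 met this rule. They were 4908 of 8190 cells of the control (59.9%, 58.9 to 61.0) and 1376 of 7851 cells of the library labelled Sws2-ablation (17.5%, 16.7 to 18.4). These shares follow from the selecting genes and are given as a description. The bounds given here and throughout are 95% intervals of counting error only.

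Müller glia are the radial glia of the retina. They span its whole thickness, clear glutamate and potassium around neurons, convert glutamate to glutamine, and carry retinoid-binding proteins that serve the cone visual cycle. In mammals they answer injury mainly with gliosis. In zebrafish some of them leave quiescence, express reprogramming factors, divide and give rise to new neurons, whereas others answer without dividing, and the cells chosen here are those that expressed glial genes and held few or no transcripts of proliferation genes.

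Single-cell RNA-seq was performed on Gfap-positive cells sorted from papain-dissociated retinae of larvae killed at 9 days post fertilization (dpf). The methods of the study give this age for control and ablation larvae alike, but its results text gives 6 dpf for the uninjured larvae. The age of the control is therefore not certain. The control larvae were Tg(her4.1:dRFP/gfap:GFP), with a red reporter driven by the promoter of the Notch target her4.1 and a green one driven by the glial gfap promoter. The ablation larvae carried in addition sws2:nfsb-mCherry or, in a library used here only for values side by side, lws2:nfsb-mCherry. In these transgenes the promoter of the blue or the red cone opsin drives a nitroreductase fused to mCherry, which turns metronidazole into a toxin inside the cones. By the methods, all larvae, those of the control too, were exposed to 10 mM metronidazole for 48 h from 6 dpf. They were rinsed at 8 dpf, and cells were collected at 3 days post injury. The number of pooled animals is not given in the sources used here, and kit chemistries of 2 versions are named without saying which library had which, so kit and condition cannot be told apart. Each condition had 1 library, so no difference below has a replicate check and none was tested. A difference between conditions is therefore a difference between these libraries.

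The chosen cells held 24391950 UMIs in the control and 8345216 in the library labelled Sws2-ablation, with a median of 4598 and 5563 UMIs and 1447 and 1598 genes per cell. The median share of mitochondrially encoded UMIs was 1.04% and 1.6%. Of the barcodes, 17 occurred in both libraries, 1 of them in resting glia of both. The transgene of the line went against the label in 1 respect. EGFP was detected in 4278 of the control cells (87.2%) and in 86.2% of the resting glia of the library labelled Lws2-ablation, but in 11 cells (0.799%, 0.400 to 1.43) of the library labelled Sws2-ablation, at 1552, 1655 and 1.56 CPM (counts per 1000000 UMIs) respectively. RFP was detected in 93.8% of the control cells and 98.5% of the cells labelled Sws2-ablation, at 3088 and 7108 CPM. For this reason the library is called by its label throughout, and its resting glia are called Sws2-labelled glia, as those of the Lws2-ablation library are called Lws2-labelled glia. Levels below are UMIs of a gene summed over the resting glia of a library and divided by all their UMIs, in CPM, and fold differences are ratios of these levels.

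Glial markers that did not choose the cells were compared between the libraries, and not with other kinds of cells. The list of 8 glial markers held, beside glula and apoeb, 6 others, which all lay within 2-fold of the control, with a median log2 difference of -0.02. The glutamine synthetase paralogue glulb was at 7656 CPM in the control, 8853 CPM in Sws2-labelled glia and 8686 CPM in Lws2-labelled glia. The retinaldehyde-binding protein gene rlbp1a was at 2884, 2792 and 3546 CPM in the same order, the glutamate transporter gene slc1a2b at 2824, 2494 and 2709 CPM, and the filament gene gfap at 372, 371 and 475 CPM. The carbonic anhydrase gene cahz was the lowest of the 6 relative to the control, at 771 and 387 CPM, and the opsin-like gene rgrb the highest, at 24.4 and 46.6 CPM. Not all 6 stayed within 2-fold under the 17 alternative settings of the last section. There the log2 difference ran from -0.08 to 1.09 for gfap, -1.14 to -0.66 for cahz and 0.81 to 1.12 for rgrb. For glulb, rlbp1a and slc1a2b it stayed within 2-fold throughout. Proliferation stayed low as the rule demands, with pcna at 49.0 and 44.2 CPM and mki67 at 0.574 and 1.56 CPM.

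The selecting genes were themselves not equal. The glutamine synthetase gene glula was at 19615 CPM in the control and 7688 CPM in Sws2-labelled glia, and the apolipoprotein E gene apoeb at 17349 and 18134 CPM. The median of both together was 341 per 10000 UMIs in control cells and 233 in Sws2-labelled cells. Over 600 per 10000 lay 525 control cells (10.7%) and 12 Sws2-labelled cells (0.872%, 0.451 to 1.52). Near the threshold, 95 control cells lay at 140 to 150 per 10000, just outside, and 93 at 150 to 160, just inside. Their glulb levels were 5259 and 5228 CPM. Of Sws2-labelled cells, 91 and 86 lay in these ranges, with glulb at 6522 and 7613 CPM. At the limit on proliferation genes, 200 control and 91 Sws2-labelled cells held 2 such UMIs and were kept, and 33 and 28 cells held 3 and were not. Because many cells lay near the limit and the cells inside it differed in glula, levels are also given below within ranges of glula plus apoeb.

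Across all genes, 6933 reached 10 CPM in at least 1 of the 2 libraries. At least 2-fold higher in Sws2-labelled glia were 362 of them (5.22%), and at least 2-fold lower were 564 (8.14%), on a log2 scale with 1 CPM added. Counts of higher and lower genes in the lists below are to be read beside these shares. Genes below 10 CPM in 1 library entered only through the other, which sets part of each count. The median log2 difference was -0.10, and from the 5th to the 95th percentile the differences ran from -1.19 to 1.02. The split between both directions depended on the total used for scaling. With ribosomal, mitochondrial, selecting and transgene counts left out of the total it was 701 higher and 427 lower (median 0.09), and with median-ratio scaling 491 higher and 461 lower (median 0.01). The first of these scalings thus moved the median by 0.18 on the log2 scale. That median was over 7794 instead of 6933 genes, so 0.18 is not the shift of each gene. A change of the total moves the ratios of all genes below in the same direction. For the library labelled Lws2-ablation, which was set against the same control, 453 of 7084 genes (6.39%) were at least 2-fold higher and 249 (3.51%) lower.

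**Figure D1:**
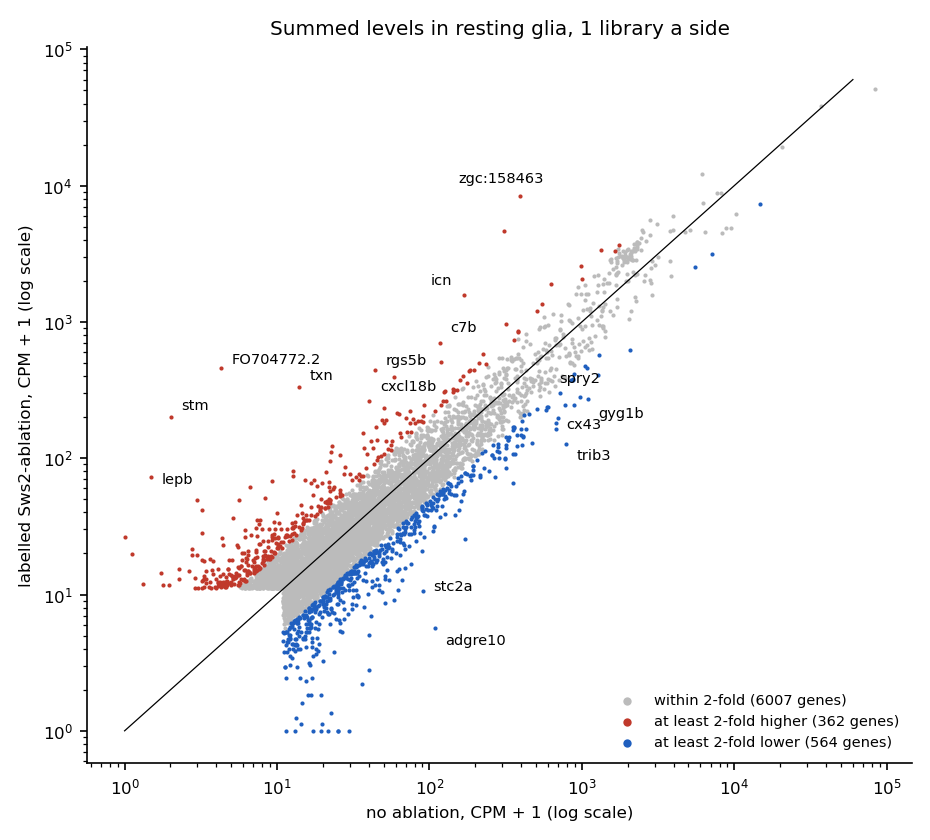
Levels of the 6933 genes in resting glia of the control (x axis, CPM, log scale) and of the library labelled Sws2-ablation (y axis, CPM, log scale), 1 point per gene. Red points are the 362 genes at least 2-fold higher, blue points the 564 genes at least 2-fold lower and grey points the rest, and most genes lie along the diagonal.

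Among the gene lists, the immune-type genes had the largest share of higher genes. Of 26 measured genes for chemokines, complement, interferon responses and antigen presentation, 17 were at least 2-fold higher and 1 was lower, with a median log2 difference of 1.59 against -0.10 over all genes. Summed, these genes made up 0.0959% of all UMIs in control glia and 0.289% in Sws2-labelled glia. The list of cytokine, leptin and Stat3 signalling had 4 of 18 measured genes higher (22.2%) and 1 lower (5.56%), with a median of 0.63. Over all genes the shares were 5.22% and 8.14%. A list named for engulfment had 7 of 26 higher and 1 lower (median 0.43). A gene entered these counts at 10 CPM in either library. Of the higher immune-type genes, c4b, psme1, b2m, psmb10, rsad2, mhc1uba and stat2 were below 10 CPM in the control. So were lepb, lifrb and crlf1a of the cytokine list and anxa2a and dock1 of the engulfment list. All of these entered only through Sws2-labelled glia, so the counts of higher genes are in part set by this filter.

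The chemokine gene cxcl18b, known in zebrafish for drawing neutrophils, was at 39.4 CPM in the control, 261 CPM in Sws2-labelled glia and 382 CPM in Lws2-labelled glia. This was 6.62-fold above the control (6.13 to 7.15). The terminal complement gene c7b was at 116, 701 and 828 CPM in the same libraries, 6.04-fold higher in Sws2-labelled glia (5.77 to 6.32). Both stood well above the control in either ablation library. The other complement gene, c4b, was nearly absent from the control, with 8 UMIs (0.328 CPM) against 92 (11 CPM). The chemokine gene cxcl14 was at 20.1 and 78.0 CPM and the surface glycoprotein gene cd99, which serves leukocyte passage through vessel walls in mammals, at 47.5 and 189 CPM. In the opposite direction, the chemokine gene cxcl12b was at 25.3 CPM in the control and 10.9 CPM in Sws2-labelled glia. Its log2 difference of -1.14 ran from -2.37 to -0.06 under 17 alternative settings and fell short of 2-fold in 7 of them. The G protein regulator rgs5b, placed in the same list, had the largest difference of it, with 43.1, 446 and 718 CPM in the control, Sws2-labelled and Lws2-labelled cells, which is 10.3-fold above the control (9.65 to 11.1) for Sws2-labelled glia.

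Interferon-type genes were higher as well. The signal transducer stat2, which carries type I interferon signals, was at 7.30 CPM in the control and 50.4 CPM in Sws2-labelled glia (6.91-fold, 5.79 to 8.28). Interferon-inducible ifi46 and ifi45 were at 11.8 and 73.5 CPM and at 49.2 and 179.7 CPM. The ubiquitin-like modifier isg15 was at 38.1 and 106 CPM and the antiviral gene rsad2 at 5.12 and 28.6 CPM. Antigen presentation was represented by b2m, the light chain of class I molecules, at 4.67 and 48.2 CPM, by the class I gene mhc1uba at 6.31 and 29.6 CPM, and by the immunoproteasome genes psmb10 (5.08 and 14.1 CPM) and psme1 (2.95 and 12.1 CPM). Not all genes of this kind differed: the second light chain gene b2ml was at 183 and 165 CPM, and mhc1zba at 109 and 103 CPM. Beside these genes, the 16 microglial and leukocyte markers summed to 6.85 CPM in the control and 4.43 CPM in Sws2-labelled glia, with 5 and 8 of them at 0, among them lcp1 in both libraries and mpeg1.1 in the latter.

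Among cytokines, the hormone gene lepb (leptin b) stood out. It had 12 UMIs in the control (0.492 CPM), 597 in Sws2-labelled glia (71.5 CPM) and was at 45.9 CPM in Lws2-labelled glia, a 145-fold difference for Sws2-labelled glia with a wide interval (82.6 to 283) because so few control UMIs were counted. The growth factor tgfb3 was at 18.8 and 65.1 CPM (3.47-fold, 3.05 to 3.93). The cytokine receptor genes lifrb and crlf1a were at 0.779 and 10.8 CPM and at 7.05 and 23.6 CPM. The feedback inhibitor socs3a, at 1875 CPM in the control and 2968 CPM in Sws2-labelled glia, stayed below 2-fold, and the transcription factor cebpd, which acts in acute-phase responses, was lower, at 5557 and 2518 CPM.

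The single genes farthest above the control included some outside these lists. By the rule for named genes, which took the 20 highest and 20 lowest among genes at 50 CPM or more in either library, stm came next to the top. This gene encodes starmaker, known as a matrix protein of zebrafish otoliths. It had 25 UMIs in the control (1.02 CPM) against 1673 in Sws2-labelled glia (200.5 CPM) and 89.9 CPM in Lws2-labelled glia, a 196-fold difference (132 to 303). Thioredoxin txn, which reduces oxidized proteins, was at 12.9, 334 and 287 CPM in the control, Sws2-labelled and Lws2-labelled glia, 25.9-fold above the control (23.0 to 29.2) in the Sws2-labelled ones. The S100-family calcium-binding gene icn (ictacalcin) was at 167, 1572 and 3757 CPM, which is 9.42-fold (9.09 to 9.76) for Sws2-labelled glia. For icn the library labelled Lws2-ablation was thus higher still, whereas for stm it was lower. Peroxiredoxin prdx1, which removes peroxides together with thioredoxin, was at 5.62 and 60.5 CPM, the transcriptional regulator SBNO2 at 8.24 and 66.7 CPM, the small heat shock protein gene hspb8 at 21.8 and 121 CPM, phlda2 at 49.3 and 232 CPM and the cyclic AMP-responsive factor crema at 14.2 and 68.7 CPM. The gene si:dkey-188i13.10 was at a log2 difference of 2.66. The remaining highest genes are described with the rest of the library below, because their ratios were similar in other cells. The 20th gene, crema, lay at a log2 difference of 2.2, and the next, krt8, just outside the rule, at 2.1.

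**Figure D2:**
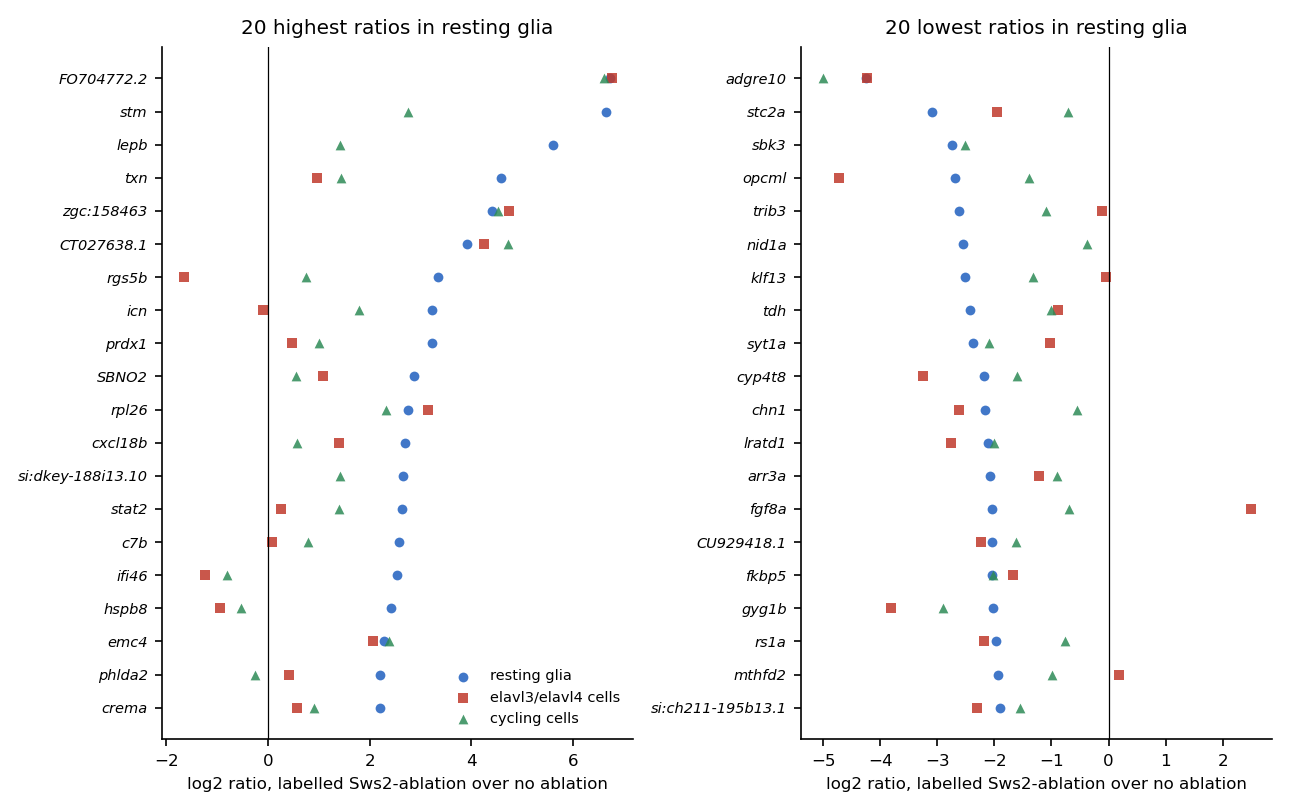
Log2 ratio of the library labelled Sws2-ablation to the control for the 20 highest and 20 lowest genes in resting glia, with the ratios of the same genes in elavl3 and elavl4 cells and in cycling cells where at least 10 UMIs were counted over both libraries. The ratios of FO704772.2, zgc:158463, CT027638.1, rpl26, emc4 and adgre10 are similar in all 3 kinds of cells, and those of icn and c7b are larger in resting glia than in the other cells.

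To see which differences belonged to resting glia and which to the library as a whole, the same genes were measured in 2 kinds of other cells, defined after the data were seen. These were 242 control and 154 Sws2-labelled cells with at least 5 UMIs of the neuronal genes elavl3 and elavl4 and under 50 UMIs of glula plus apoeb per 10000, and 319 and 994 cells with at least 10 UMIs of the proliferation genes. In the elavl cells, c7b was at 4.26 and 4.55 CPM, icn at 18.7 and 17.5 CPM, cxcl18b at 1.70 and 6.07 CPM and stm at 0.852 and 0.759 CPM. In these cells rgs5b was lower rather than higher, at 35.8 and 10.6 CPM. In the cycling cells c7b was at 21.7 and 38.1 CPM, icn at 5.14 and 20.1 CPM and cxcl18b at 35.3 and 53.0 CPM. These levels were far smaller than in resting glia, except that of cxcl18b in the control, which was near its level in control resting glia. Thioredoxin txn was at 17.9 and 35.7 CPM in elavl cells and 30.4 and 84.1 CPM in cycling cells. The fold differences in c7b, icn and txn were therefore larger in resting glia than in either other kind of cell. That in rgs5b was larger than in elavl cells, and its level in cycling cells is not given here. For cxcl18b it was larger than in cycling cells. The elavl cells held 1173527 UMIs in the control and 1317762 in the library labelled Sws2-ablation, so c7b, cxcl18b and stm rest on few UMIs there. For cxcl18b the fold difference in elavl cells is too uncertain to be ranked against that in resting glia. For stm the cycling cells were at 0 and 5.75 CPM, a smaller level than in Sws2-labelled resting glia. The elavl cells were not the same mixture in both libraries, since the glycine transporter gene slc6a9 of amacrine cells was at 1410.3 and 84.2 CPM in them and the ganglion cell gene isl2b at 87.8 and 287 CPM.

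Other high genes also differed in the other kinds of cells. FO704772.2, a gene the files list by its clone name alone, was at 3.32 CPM in control glia and 455 CPM in Sws2-labelled glia (137-fold, 109.9 to 173), at 2.56 and 385 CPM in elavl cells and at 2.01 and 294 CPM in cycling cells. The gene zgc:158463 was at 394 and 8426 CPM in resting glia and 262 and 7060.5 CPM in elavl cells, and CT027638.1 at 309 and 4654 CPM in resting glia and 202 and 3838 CPM in elavl cells. The ribosomal gene rpl26 was at 57.6 and 396 CPM in resting glia and 69.9 and 622 CPM in elavl cells, and the endoplasmic reticulum gene emc4 at 21.6 and 109.9 CPM and at 17.9 and 78.2 CPM. Among low genes, adgre10, an adhesion G protein-coupled receptor gene, behaved in the same way. It was at 107 CPM in control glia, 4.67 CPM in Sws2-labelled glia (22.9-fold lower, 16.7 to 32.2) and 19.1 CPM in Lws2-labelled glia, and at 60.5 and 2.28 CPM in elavl cells. For these 6 genes a difference of the same kind stood in every kind of cell measured. Strain, batch and kit were not tested and cannot be told apart from the condition here.

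Classes of housekeeping genes, in lists added after the data were seen, were above the control in resting glia, and in other cells to a degree that differed by class. All 77 measured ribosomal protein genes lay above the control, 7 of them at least 2-fold, with a median log2 difference of 0.66, and together they took 14.1% of the UMIs in control glia and 22.7% in Sws2-labelled glia. The library labelled Lws2-ablation was near the control, at 15.4%. In elavl cells the share was 18.5% in the control and 32.3% in the library labelled Sws2-ablation, with 77 of 77 genes above the control, and in cycling cells it was 38.8% and 46.1%, with 71 of 77 above. Of 84 measured nuclear genes of the respiratory chain, 20 were at least 2-fold higher and none lower (median 0.66), for example cox7c at 223 and 578 CPM. Of these 84 genes, 2 were at least 2-fold higher and 3 lower in elavl cells (median 0.29) and 0 and 1 in cycling cells (median 0.17). All 13 mitochondrially encoded genes were above the control and 5 reached 2-fold, such as mt-nd3 at 125 and 309 CPM, with medians of 0.58 in resting glia, 0.48 in elavl cells and 0.07 in cycling cells. A larger share of the total for these genes leaves a smaller share for all others. The split of 701 higher and 427 lower genes above left ribosomal, mitochondrially encoded, selecting and transgene counts out of the total. The nuclear respiratory chain genes stayed in that total.

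Redox and stress genes did not move as 1 group. Of 33 measured genes of oxidative stress, metal binding and the amino acid response, 2 were higher (txn and prdx1) and 7 lower, and the median was 0.10. The 7 lower genes belong largely to the response led by Atf4, which is switched on when amino acids run short or proteins misfold. The pseudokinase gene trib3 was at 789.6 CPM in the control, 127 CPM in Sws2-labelled glia and 140.2 CPM in Lws2-labelled glia (6.2-fold lower in the former, 5.83 to 6.60). The glutathione-degrading gene chac1 was at 692 and 196 CPM, atf4b itself at 1077 and 456 CPM, the stress genes ddit4 and ddit3 at 176 and 75.9 CPM and at 88.1 and 40.4 CPM, sesn2 at 32.6 and 8.87 CPM and the cysteine-making enzyme cth at 37.5 and 16.9 CPM. Metallothionein mt2 was at 8153 and 8871 CPM. In elavl cells trib3 was at 60.5 and 56.2 CPM, levels close to each other, and in cycling cells it was at 62.1 and 28.5 CPM.

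The genes mthfd2 and tdh were also among the 20 lowest. The mitochondrial folate enzyme mthfd2 was at 146 CPM in the control and 37.4 CPM in Sws2-labelled glia, and the threonine dehydrogenase gene tdh at 350 and 64.5 CPM. The neutral amino acid transporter slc1a4 was at 45.6 and 10.7 CPM. Of 20 measured cytosolic aminoacyl tRNA synthetase genes, in a list added after the data were seen, 4 were at least 2-fold lower (yars, iars, gars and aars), 1 was higher (dars), and the median was -0.71, while the other 15 stayed within 2-fold. For yars the levels were 48.7 CPM in the control, 15.7 CPM in Sws2-labelled glia and 17.6 CPM in Lws2-labelled glia.

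Few heat shock genes passed 2-fold. Those at least 2-fold higher and those at least 2-fold lower were 7.69% each, near the 5.22% and 8.14% of all genes, and 22 genes were neither. Of 26 measured, 2 were higher, hspb8 (5.57-fold, 5.01 to 6.19) and hsph1 at 90.5 and 245 CPM, and 2 were lower, hsp70.2 at 14768 and 7381 CPM and the steroid receptor co-chaperone fkbp5 at 671 and 163 CPM. The closely related hsp70.3 was at 9575 and 4884 CPM and hsp70l at 20707 and 19354 CPM. Such near-identical copies may share reads, and how shared reads affected their levels was not examined. Immediate early genes of the AP-1 kind, which also answer tissue dissociation, had 4 of 35 members at least 2-fold lower and none higher, with a median of -0.23. This share of 11.4% was near the 8.14% of all genes, and with the reduced total 2 were higher and 2 lower (median -0.08). The AP-1 genes fosab and jun were at 10278 and 6170.5 CPM and at 8359.8 and 4509.5 CPM, fosb at 893 and 414 CPM and the phosphatase gene dusp2 at 350.1 and 106 CPM.

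Genes of the circadian clock and of the glucocorticoid response were a list added after fkbp5 and klf13 were seen among the lowest genes. It had 9 of 27 members at least 2-fold lower (33.3%), none higher, and a median of -0.62. Over all genes 8.14% were lower and 5.22% higher. Because low genes of these same data prompted the list, its count and median are a description only. The clock repressor nr1d2a was at 468 CPM in the control, 128 CPM in Sws2-labelled glia and 153 CPM in Lws2-labelled glia. In the same order, ciarta was at 373, 147 and 148 CPM and bhlhe41 at 319, 123 and 105 CPM, and the glucocorticoid-induced tsc22d3 at 593, 238 and 321 CPM. Elavl cells shared these differences, with nr1d2a at 354 and 83.5 CPM and tsc22d3 at 279 and 122 CPM. The hour at which larvae were killed is not given in the sources used here, and its part in the result was not tested.

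**Figure D3:**
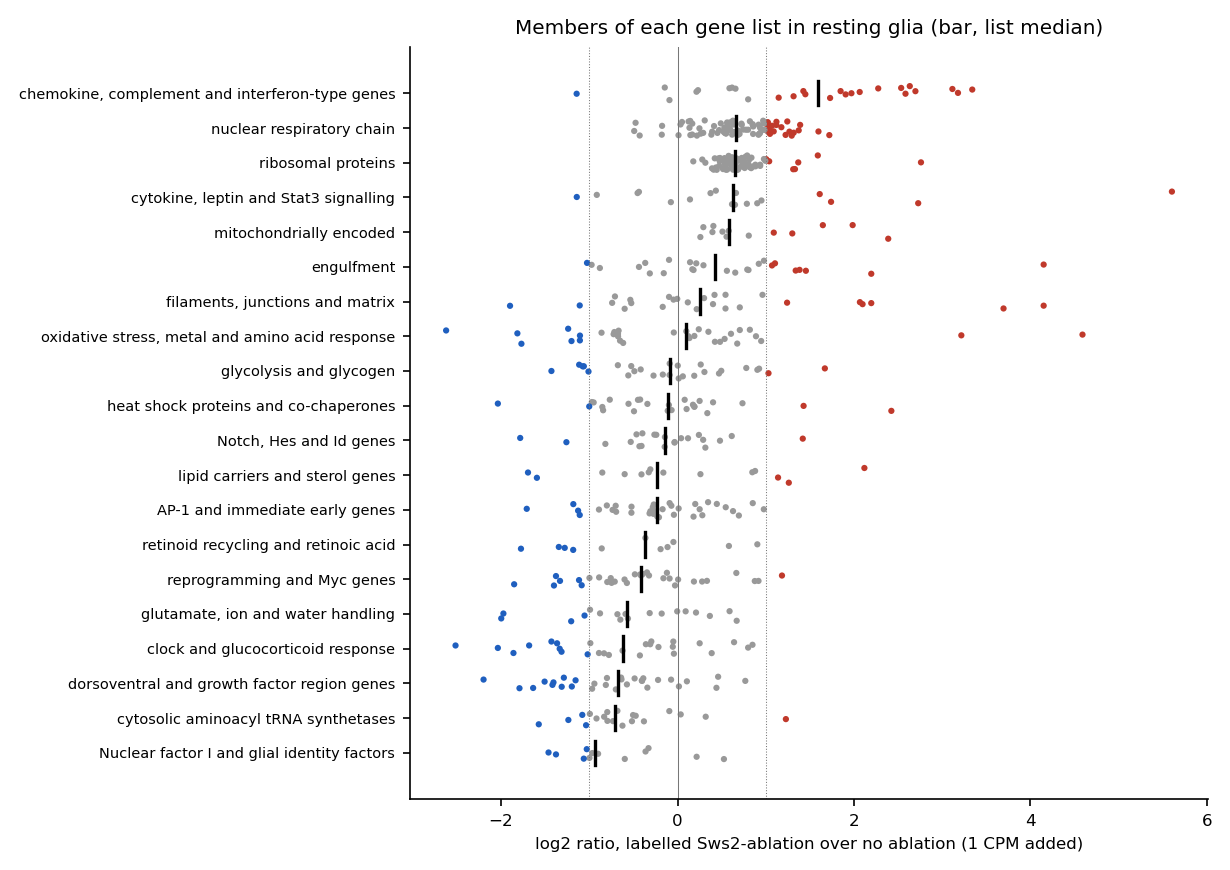
Log2 ratio of the library labelled Sws2-ablation to the control for the measured members of each gene list in resting glia, 1 dot per gene, with a bar at the median. Red dots are at least 2-fold higher and blue dots at least 2-fold lower. The list of chemokine, complement and interferon-type genes has the largest share of red dots, 17 of 26, and the region genes have 10 blue and 0 red of 30.

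Genes that pattern Müller glia by their place in the retina, together with growth factor genes, were on the whole below the control. Of 30 measured, 10 were at least 2-fold lower and none higher (median -0.67), and their sum was 0.761% of UMIs in control glia and 0.385% in Sws2-labelled glia. Of these 10, 4 are read-outs of fibroblast growth factor (Fgf) signalling. The feedback inhibitor spry2 was at 965 CPM in the control, 278 CPM in Sws2-labelled glia and 307 CPM in Lws2-labelled glia (3.47-fold lower in the former, 3.32 to 3.62). Its relative spry4 was at 410, 144 and 181 CPM, the phosphatase gene dusp6 at 226, 84.1 and 77.0 CPM and the transcription factor gene etv5b at 123, 48.8 and 45.2 CPM. All 4 read-outs were low in both ablation libraries. The ligand gene fgf8a, which is outside the list but among the 20 lowest genes, was at 60.1, 13.8 and 29.7 CPM. The ligand gene fgf24 was at 665, 339.7 and 413 CPM, just short of the limit at 1.96-fold lower (1.88 to 2.04). Other ligands in the list were igf2b, an insulin-like growth factor, at 256, 104 and 218 CPM, the activin subunit inhbab at 281, 126 and 107 CPM, the ephrin efna1a at 62.9, 23.1 and 44.0 CPM and vegfaa, which drives vessel growth, at 36.0, 7.07 and 19.9 CPM. The antiproliferative gene tob1a was at 1274 and 409 CPM. The ephrin gene efnb2a stayed within 2-fold, at 112 and 84.7 CPM.

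Retinoid genes showed the same direction in part. Of 11 measured, 4 were at least 2-fold lower and none higher (median -0.36). Retinol dehydrogenase rdh10a, which makes the precursor of retinoic acid, was at 396 CPM in the control, 163 CPM in Sws2-labelled glia and 266 CPM in Lws2-labelled glia (2.43-fold lower in the former, 2.30 to 2.58). The retinoic acid-making enzyme aldh1a3 was at 43.3 and 16.4 CPM, the degrading enzyme cyp26a1 at 854 and 376 CPM and the binding protein crabp2a at 12.7 and 3.00 CPM. The related crabp1a was higher than the control but within 2-fold, at 459 and 688 CPM. Because nearly all Sws2-labelled glia lacked EGFP, the comparison was also run against control glia without an EGFP UMI, and rdh10a was then slightly above the control, at a log2 difference of 0.25 instead of -1.28.

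The share of cells with a gene was compared after each cell was thinned to 1000 UMIs, which left out 131 control, 58 Sws2-labelled and 65 Lws2-labelled cells with fewer. Any UMI of fgf24 was held by 42.0% of control cells (41 to 43), 23.3% of Sws2-labelled cells (21.0 to 25.7) and 29.2% of Lws2-labelled cells (27.2 to 31.3). For rdh10a the shares were 21.5%, 11.8% and 16.7%, and for efnb2a 8.77%, 5.39% and 5.52%. None of these 3 region genes was detected in 38.8% of control cells and 64.4% of Sws2-labelled cells. Detection of these genes was thus rarer in either ablation library. Fewer cells with a gene and less RNA of it per cell cannot be told apart at this depth.

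Some of the higher genes were also detected in more cells. Of thinned cells, icn was held by 7.60% of control (6.86 to 8.39), 43.5% of Sws2-labelled (40.8 to 46.2) and 68.9% of Lws2-labelled glia (66.8 to 70.9). Elavl cells thinned in the same way held it in 1.27%, 1.95% and 4.96% of cells. The share for c7b was 7.20%, 28.2% and 27.3%, against 0.422%, 0.649% and 1.06% of elavl cells. The share for txn was 0.481%, 18.6% and 16.9% and the share for rgs5b 1.76%, 15.3% and 20.5%. Elavl cells held txn in 1.69%, 3.25% and 2.41% of cells and rgs5b in 4.22%, 1.30% and 4.67%. In the control, the shares in resting glia were below those in elavl cells. Whether they are background was not tested. Without thinning, icn was found in 13.9%, 56.8% and 79.1% of resting glia and c7b in 21.8%, 56.7% and 56.2%. By contrast, stm was held by 2 of 4777 control cells, 5.46% of Sws2-labelled cells (4.3 to 6.83) and 2.73% of Lws2-labelled cells (2.06 to 3.56), and lepb by 1 control cell, 4.1% and 2.68%. No thinned elavl cell held stm in any library. The genes stm and lepb were thus detected in few cells, whereas icn and c7b were found in many. In thinned Sws2-labelled cells, 166 UMIs of stm lay in 72 cells and 61 UMIs of lepb in 54 cells. For lepb, few cells with the gene and a low level in many cells cannot be told apart. The top gene, FO704772.2, was held by 0.251%, 34.4% and 8.00% of thinned cells. In the opposite direction, trib3 was held by 48.4%, 10.5% and 13.3% of resting glia, spry2 by 59.3%, 20.9% and 27.1%, and the gap junction gene cx43 by 44.6%, 14.5% and 27.9%.

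**Figure D4:**
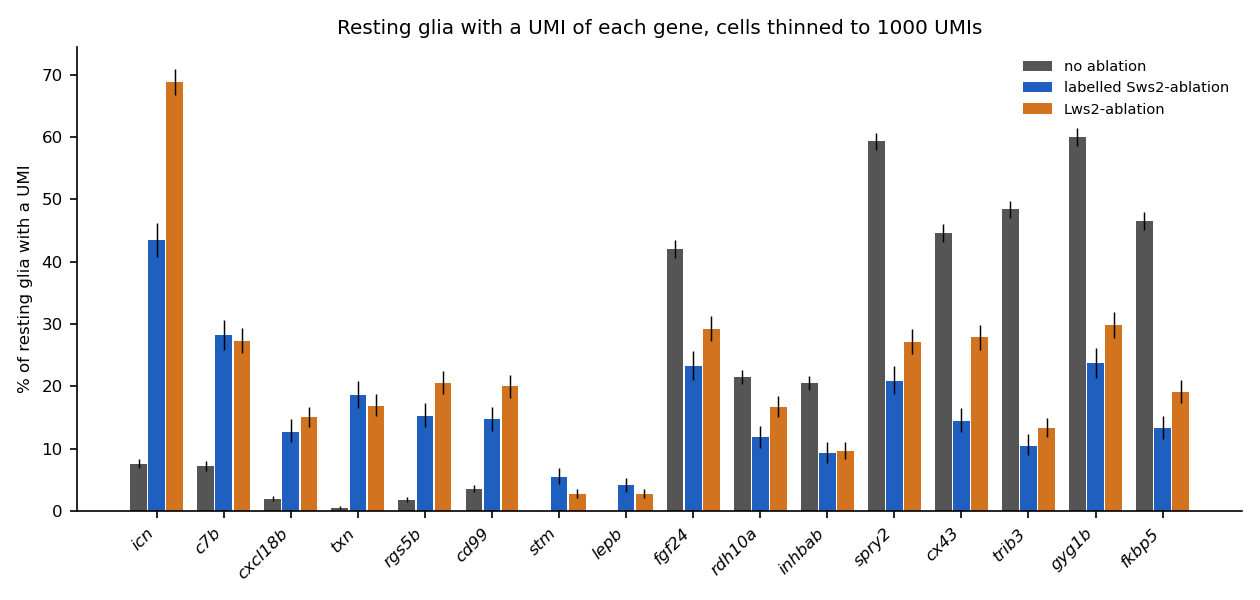
Share of resting glia with at least 1 UMI of each of 16 genes after thinning every cell to 1000 UMIs, in percent, for the control and the libraries labelled Sws2-ablation and Lws2-ablation. Bars are exact binomial 95% intervals over cells of 1 library each. The share for icn is 7.60% in the control and 43.5% in Sws2-labelled glia, and the share for spry2 is 59.3% and 20.9%.

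Since glula, one of the selecting genes, was itself lower, genes were compared within equal ranges of glula plus apoeb. At 150 to 300 per 10000 lay 1938 control cells (39.5%) and 1017 Sws2-labelled cells (73.9%), and at 300 to 600 lay 2445 (49.8%) and 347 (25.2%). For icn the fold difference was 11.8 (11.1 to 12.5) in the lower range and 8.61 (8.18 to 9.06) in the upper one. In the same order it was 4.79 and 8.43 for c7b, 5.07 and 6.98 for cxcl18b, 9.19 and 8.13 for rgs5b and 31.2 and 17.5 for txn. The differences were thus present in either of these ranges. Among lower genes, trib3 was 5.96-fold and 7.26-fold lower, rdh10a 2.55-fold and 3.22-fold, inhbab 2.60-fold and 2.44-fold, and fgf24 1.70-fold in either range. The growth factor gene igf2b depended on the range, at 1.57-fold and 2.1-fold lower. Of the glial genes, glulb was 1.30-fold and 1.25-fold higher, and gfap was at 0.988 and 0.960 of the control. Above 600 per 10000 lay only 12 Sws2-labelled cells, with a median of 1072 UMIs. In them icn did not show the difference, at 0.859-fold (0.277 to 2.03) on 5 UMIs, whereas c7b was 10.2-fold (7.26 to 14.1) higher on 46 UMIs.

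**Figure D5:**
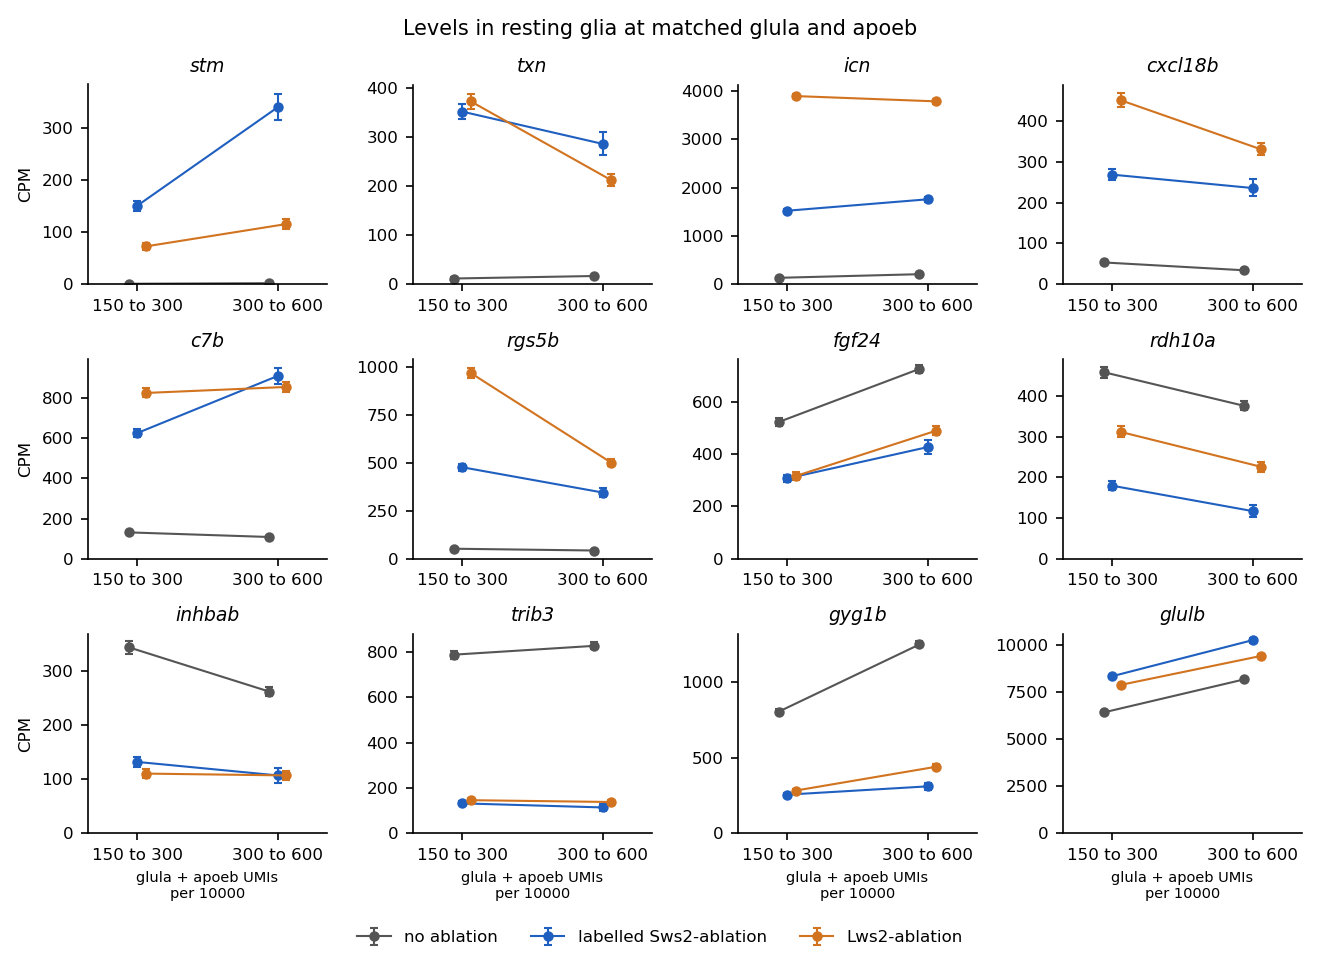
Levels (CPM, linear scale) of 12 genes in resting glia with 150 to 300 and with 300 to 600 UMIs of glula plus apoeb per 10000, in the control and the libraries labelled Sws2-ablation and Lws2-ablation. Bars are exact Poisson 95% intervals of the summed counts. For icn the levels at 150 to 300 per 10000 are 129, 1519 and 3895 CPM and at 300 to 600 they are 204, 1756 and 3785 CPM.

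Glia with different region genes shared these differences to unequal degrees. In cells with fgf24 alone, icn was 7.68-fold higher in Sws2-labelled glia (7.30 to 8.09), and in cells with rdh10a alone 11-fold (8.12 to 15). The difference in rgs5b was 16.3-fold and 3.89-fold in these cells, and that in c7b 5.15-fold and 3.39-fold. In cells with efnb2a alone, icn was 14.2-fold and c7b 2.4-fold higher. The pseudokinase gene trib3 was lower in all 5 classes, from 3.84-fold in cells with rdh10a alone to 7.90-fold in cells with none of the 3 genes. Counting of a gene in a class depends on depth, since more deeply read cells more often hold several region genes.

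Within the library labelled Sws2-ablation, cells with fgf24 alone and cells with rdh10a alone held unequal levels of some of the higher genes. Over 447 and 117 cells, icn was at 1768 and 340.2 CPM (5.20-fold, 4.46 to 6.09) and c7b at 801 and 167 CPM (4.79-fold, 3.86 to 6.03). When the classes were taken from cells thinned to 1000 UMIs, an alternative chosen after the data were seen, 241 and 102 cells were left, and icn was 2.12-fold (1.90 to 2.36), c7b 3.27-fold (2.75 to 3.93) and hspb8 3.19-fold higher (2.2 to 4.77) in cells with fgf24. The genes stm and lepb, 6.93-fold and 7.52-fold higher with all UMIs, were at 1.05-fold (0.823 to 1.34) and 1.03-fold (0.731 to 1.47) in the thinned classes, and cxcl18b went from 2.0-fold to 0.952-fold (0.792 to 1.15). Other genes were lower in cells with fgf24, such as stat2 at 0.620 (0.430 to 0.916) and krt18a.1 at 0.735 (0.580 to 0.940) with all UMIs. The class difference in icn, c7b and hspb8 thus remained above 1, interval included, under both ways of forming classes. That in stm, lepb and cxcl18b did not. It also remained so for txn, rgs5b, cd99, cxcl14 and ifi46, at 1.79-fold, 1.63-fold, 1.96-fold, 2.53-fold and 1.98-fold in the thinned classes. These intervals hold counting error only, without variation between cells, and all these cells came from 1 library. They therefore do not show which class differences would recur. In thinned control cells with fgf24 alone icn was 3.22-fold (2.79 to 3.75), c7b 4.45-fold (3.70 to 5.4) and hspb8 2.31-fold (1.59 to 3.47) higher than in those with rdh10a alone. There txn, cd99 and cxcl14 were also higher, ifi46 was at 0.956 (0.617 to 1.52), and rgs5b ran the other way, at 0.451 (0.369 to 0.552). In the library labelled Lws2-ablation, icn was 1.97-fold (1.89 to 2.05) and c7b 2.0-fold (1.84 to 2.19) higher in the thinned cells with fgf24 alone. The activin subunit gene inhbab ran the other way, at 0.174 and 0.167 of its level in rdh10a cells in the libraries labelled Sws2-ablation and Lws2-ablation.

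The scarce genes were held by few Sws2-labelled cells. After thinning, 72 cells held stm, 54 held lepb and 202 held rgs5b. In the stm cells txn was at 1000 CPM, against 268 CPM in the 1246 other cells (3.73-fold, 2.85 to 4.83), and rlbp1a was lower, at 2028 and 3061 CPM (0.662, 0.558 to 0.782). The lepb cells had hspb8 at 259 and 64.9 CPM (4.00-fold, 2.09 to 7.09), cxcl14 at 259 and 76.7 CPM and cxcl18b at 537 and 214 CPM (2.51-fold, 1.65 to 3.69). In these cells txn was 1.6-fold higher (1.03 to 2.38). The stm cells also held more hspb8, by 2.24-fold (1.08 to 4.21), but were near the others in cxcl18b, at 222 and 227 CPM. In the rgs5b cells stm was at 257 and 102 CPM (2.52-fold, 1.78 to 3.53) and the keratin gene krt18a.1 at 248 and 118 CPM (2.09-fold, 1.48 to 2.92), hspb8 was 1.95-fold, cxcl14 2.14-fold and cxcl18b 1.66-fold higher, whereas icn was at 1693 and 1627 CPM and txn at 282 and 313 CPM. All 3 kinds of cells held more c7b than the rest, by 1.94-fold, 1.92-fold and 1.58-fold. Fewer UMIs of rdh10a were counted in them, at 0.390, 0.261 and 0.659 of the level in the other cells. These values rest on few UMIs, for example 6 of rdh10a in the stm cells and 3 in the lepb cells, and on cells of 1 library.

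Genes with which Müller glia serve neurons were on the whole somewhat below the control. Of 18 measured genes for glutamate, ion and water handling, none was at least 2-fold higher and 4 were lower, with a median of -0.58, and at 1.5-fold 9 were lower and 2 higher. With control cells weighted to the same glula and apoeb levels, 2 were at least 2-fold lower (median -0.26). The amino acid transporter slc38a4 was at 875 CPM in the control, 379 CPM in Sws2-labelled glia and 414 CPM in Lws2-labelled glia (2.31-fold lower in Sws2-labelled glia, 2.22 to 2.4). The pump subunit gene atp1b4 was at 350.1, 168 and 259 CPM. The glycine transporter slc6a9, at 32.1 and 7.43 CPM, is shared with amacrine cells and was at 1410.3 CPM in control elavl cells. Taurine-making cdo1 was at 2015 and 2009.9 CPM.

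The junction, filament and matrix genes pointed both ways. Of 26 measured, 6 were at least 2-fold higher and 2 lower (median 0.26). The matrix-degrading enzyme gene mmp9 was at 2.21 CPM in the control, 40.6 CPM in Sws2-labelled glia and 53.8 CPM in Lws2-labelled glia (18.3-fold, 13.7 to 24.9). The keratin genes krt8 and krt18a.1 were at 21.4, 95 and 146 CPM and at 35.4, 151 and 153 CPM, and the annexin partner s100a10b at 508, 1204 and 1089 CPM. Annexin anxa2a had 3 UMIs in the control and 158 in Sws2-labelled glia (154-fold, 51.7 to 754). In the opposite direction, cx43, which couples glia through gap junctions, was at 678, 181 and 363 CPM (3.74-fold lower, 3.55 to 3.95). The tight junction gene tjp2b was at 273, 361 and 229.8 CPM and the secreted factor metrn at 80.6, 48.9 and 59.1 CPM, all within 2-fold of the control. In elavl cells mmp9 was at 0 and 2.28 CPM and s100a10b at 15.3 and 23.5 CPM.

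The 7 higher genes of the list named for engulfment have several roles, and no uptake was measured. They were anxa2a and anxa1a, the semaphorin receptor plxnb1b (41.9 and 117 CPM), the lipoprotein receptor lrp1aa (50.5 and 133 CPM), the Rac activator dock1 (7.26 and 19.9 CPM), the integrin itgav (19.6 and 42.2 CPM) and the lysosomal protease ctsba (141 and 304 CPM). The receptor kinase mertka, which binds dying cells, was at 128 CPM in the control and 103 CPM in Sws2-labelled glia, the small GTPase gene rac1a, which drives uptake and movement, at 113 and 138 CPM, and the lysosomal membrane gene lamp2 was lower, at 111 and 54.0 CPM. Of 14 measured lipid genes, 3 were higher (21.4%) and 2 lower (14.3%), against 5.22% and 8.14% of all genes (median -0.23). The prostaglandin D synthase gene ptgdsb.1 was at 382, 842 and 2787 CPM in the control, Sws2-labelled and Lws2-labelled glia, and clusterin clu at 6.60, 32.0 and 123 CPM. Both were highest in the library labelled Lws2-ablation. The fatty acid-binding gene fabp3, at 182 and 437 CPM, was also higher in elavl cells, at 909 and 2365 CPM. The radial glial fatty acid-binding gene fabp7a was at 6220.5, 7448 and 10236 CPM. The cholesterol exporter abcg1 was lower, at 22.8 and 6.35 CPM.

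Genes tied to regeneration were mostly below the control in these resting cells, but most stayed within 2-fold. Of 32 measured reprogramming and Myc genes, 1 was at least 2-fold higher (3.12%), 6 were lower (18.8%) and 25 were neither (median -0.42). Over all genes the shares were 5.22% higher and 8.14% lower. The proneural factor ascl1a, known to act early in zebrafish retinal regeneration, was the higher one, at 14.5 CPM in the control, 34.2 CPM in Sws2-labelled glia and 25.8 CPM in Lws2-labelled glia (2.36-fold, 2.01 to 2.77). The Myc family genes mych and myca were at 887, 245 and 163 CPM and at 137, 53.7 and 66.3 CPM. The stem cell factor sox3 was at 263 and 99.0 CPM and the eye field genes six3a and lhx2b at 115 and 53.8 CPM and at 79.7 and 30.1 CPM. Of 12 measured identity factors, 4 were lower (median -0.93): lhx2b, meis2a (15.6 and 5.03 CPM), sox10 (88.7 and 41.9 CPM) and prox1a (229 and 112 CPM), while hopx was at 329.7 and 262 CPM. Since ascl1a was at 276 CPM in cycling cells of the control and 245 CPM in those labelled Sws2-ablation, its level in resting glia stayed well under that of dividing cells in either library.

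Notch signalling, which holds Müller glia in quiescence in zebrafish, showed small differences in the receptor and in most of its targets. Of 22 measured genes, 1 was higher (4.55%) and 2 were lower (9.09%), near the 5.22% and 8.14% of all genes (median -0.14). The receptor notch3 was at 37332 CPM in the control, 38403 CPM in Sws2-labelled glia and 22931 CPM in Lws2-labelled glia. The target genes her15.1 and her6 were at 2781, 2015 and 2995 CPM and at 3852, 2185 and 2928 CPM. The target her12 was at 409.7, 501 and 807 CPM, highest in Lws2-labelled glia. The inhibitor id1 was at 733, 1023 and 423 CPM. The lower genes were her4.3 (91.5, 37.6 and 17.3 CPM) and her8a (90.7, 25.6 and 27.7 CPM), and the higher one was the ligand dla (8.69, 24.9 and 21.0 CPM), which cycling cells held at 276 and 217 CPM. For notch3 and id1 Sws2-labelled glia were therefore near or above the control, whereas Lws2-labelled glia were below it.

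Fuel genes were near the control as a group. Of 27 measured genes of glycolysis and glycogen, 2 were higher (7.41%) and 5 lower (18.5%), against 5.22% and 8.14% of all genes (median -0.09). The glycogen primer gyg1b, among the 20 lowest genes, was at 1092 CPM in the control, 269 CPM in Sws2-labelled glia and 362 CPM in Lws2-labelled glia (4.06-fold lower, 3.89 to 4.24). The pyruvate dehydrogenase kinases pdk2b and pdk2a, which limit the entry of glucose carbon into mitochondria, were at 397 and 147 CPM and at 358 and 165 CPM. The enolase gene eno1b was the higher one with the larger difference, at 13.3 and 44.6 CPM, and its paralogue eno1a was at 637 and 567 CPM. In elavl cells gyg1b was also lower, at 164 and 10.6 CPM.

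The remaining lowest genes mixed glial and neuronal ones. The hormone gene stc2a (stanniocalcin) was at 89.8 CPM in the control, 9.59 CPM in Sws2-labelled glia and 28.7 CPM in Lws2-labelled glia (9.37-fold lower, 7.49 to 11.9). The kinase gene sbk3 was at 170.1, 24.4 and 26.4 CPM, with 4.26 CPM in control elavl cells. The basement membrane gene nid1a was at 50.3, 7.67 and 20.1 CPM and the cytochrome P450 gene cyp4t8 at 74.6, 15.7 and 51.2 CPM. The neuronal genes opcml, syt1a and chn1 were at 57.9 and 8.15 CPM, 65.1 and 11.7 CPM and 68.6 and 14.6 CPM in control and Sws2-labelled glia. In control elavl cells they were at 327, 649 and 230.1 CPM, above their level in resting glia.

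Most markers of amacrine, horizontal and ganglion cells and of rods and cones were at least 2-fold lower in Sws2-labelled glia, whereas bipolar markers were not. Of 9 measured markers of amacrine, horizontal and ganglion cells, 8 were at least 2-fold lower, with a sum of 695 CPM in the control, 420.2 CPM in Sws2-labelled glia and 628 CPM in Lws2-labelled glia. Most of these sums came from rbpms2a, at 431, 336 and 419 CPM. The pan-neuronal elavl3 was at 45.5, 9.71 and 47.4 CPM and the GABA-making gad1b at 32.3, 8.75 and 13.5 CPM. All 6 measured rod and cone markers were lower, with a sum of 197, 46.3 and 167 CPM. The red opsin gene opn1lw2 was at 39.1, 1.80 and 46.6 CPM, and the blue opsin gene opn1sw2, whose promoter drove the ablation, at 1.02, 0.719 and 3.53 CPM. The red opsin gene was thus low in Sws2-labelled glia and near the control in Lws2-labelled glia, and the blue opsin gene was too scarce in all 3 libraries to be compared. The 5 measured bipolar markers stayed within 2-fold, with sums of 105 and 75.1 CPM. Lens crystallins were counted in control and Lws2-labelled glia, crybb1 at 28.7 and 12.6 CPM, crygm2d1 at 20.7 and 3.84 CPM and crygn2 at 18.4 and 8.78 CPM, with no UMI in Sws2-labelled glia. Against a floor of 3 counts per library (0.359 CPM) they were at least 79.8-fold, 57.5-fold and 51.3-fold lower there than in the control. The part of RNA from neurons, photoreceptors and lens in the lower genes was not tested. Without cells holding at least 3 UMIs of neuronal and photoreceptor markers, 453 genes were at least 2-fold higher and 674 lower. The markers counted included rbpms2a. This filter took resting glia from 59.9% to 26.1% of control cells and from 17.5% to 9.37% of Sws2-labelled cells. Whether it removed cells by neuronal RNA or by rbpms2a and depth was not tested. Below, cells holding neuronal markers are those with at least 3 such UMIs.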

How the data were processed

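Droplet single-cell libraries of Gfap-positive retinal cells, 1 each from the control, Lws2-ablation and Sws2-ablation, were deposited as raw UMI counts over 27773 gene entries. Per the labels the authors used Cell Ranger 2.1.1 with the GRCz11 genome, whereas the matrix headers name version 3.0.2. EGFP and RFP were among the reference genes. Cells with 200 to 3500 (control), 4000 (Sws2-ablation) or 4500 (Lws2-ablation) genes and at most 20, 30 or 35% mitochondrial counts were kept. The rule names rrm2.1, and the 2 entries called rrm2 were used in its place. No doublet caller was run, and leaving out the 5% of cells with the most UMIs was an alternative.

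Counts of resting glia were summed per library, giving 24391950, 8345216 and 12763201 UMIs (control, Sws2-ablation, Lws2-ablation). Genes at 10 CPM or more in 1 of 2 libraries were compared with 1 CPM added, without the selecting genes and transgenes. A level carries an exact Poisson interval, a ratio an exact conditional binomial interval and a share a Clopper-Pearson interval. With 1 library per condition no test was run. The rule for named genes took the 20 largest differences in each direction at 50 CPM or more, the members of 15 lists past 2-fold with the 3 most abundant, and genes named for resting glia in the study. Other genes in the text and 5 added lists were chosen after the data were seen. Members and lists were chosen with earlier results of these data known. No sequence was analysed here. Counts for 6932 genes were simulated with Poisson counting error alone, and 200 genes were changed by more than the 2-fold limit. All 200 changed genes were recovered, no unchanged gene was called, and the intervals covered 95.4% of true ratios. The simulation held no variation between cells or libraries, so it checks the computation only and not the differences reported here. Computations used Python 3.11.15 with numpy 2.4.6, scipy 1.17.1 and pandas 2.3.3.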

Additional observations from a re-analysis of the deposited data

How the results depend on the processing

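All values rest on 1 library per condition, so no library could be left out. No paired analysis was possible because each condition had 1 library. Of 21 alternatives, 2 were chosen after the data were seen (cells with RFP but no EGFP in both libraries, and cells with fgf24 alone). Of 184 named genes past 2-fold, each run under 17 alternatives, 119 stayed past 2-fold throughout and 181 kept their direction. The exceptions were rdh10a, at 0.25 instead of -1.28 on the log2 scale both against control cells without EGFP and in cells with RFP but no EGFP, rho at 0.39 without cells holding neuronal and photoreceptor markers, and slc6a1b at 0.17 in cells with RFP but no EGFP. The cause was not tested.

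The 362 higher and 564 lower genes became 116 and 222 at 50 CPM or more, 971 and 897 with 20 UMIs and no CPM minimum, 233 and 364 with 5 CPM added, 1088 and 1551 at 1.5-fold and 60 and 61 at 4-fold. With the total without ribosomal, mitochondrial, selecting and transgene counts, 701 were higher. Elsewhere the counts stayed within 1.5 times, at 360 to 517 higher and 427 to 689 lower. The median log2 difference of -0.10 became -0.12 at 100 and -0.04 at 300 glula plus apoeb UMIs per 10000, -0.13 without cells holding neuronal markers, in cells thinned to 2000 UMIs and in cells with RFP but no EGFP, -0.14 as a mean over cells and against control cells without EGFP, 0.09 with the reduced total, 0.01 with median-ratio scaling and with 20 UMIs as the minimum, and -0.16 at 50 CPM. Resting glia made up 66.0% of control and 24.6% of Sws2-labelled cells at 100 per 10000, 36.3% and 4.57% at 300, 45.7% and 12.0% with no proliferation UMI, 26.1% and 9.37% without cells holding neuronal markers, and 65.8% and 20% after thinning to 2000 UMIs.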
